A study of Mus musculus with 3 samples.

Results

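Translation initiation factors (eIFs) bring the ribosome to the start codon of an mRNA, and elongation factors (eEFs) carry it along the reading frame. The transcripts of these factors were described in the embryo proper of wild-type mouse embryos at the early headfold (EHF) stage, when gastrulation is ending and the folds of the future head first rise. A transcript was counted as a member when its gene symbol began with Eif and a digit from 1 to 6, or with Eef and the digit 1 or 2. This rule used no measured value and took 68 of the 30854 symbols on the array. Of the 68, 53 were current gene symbols and 15 were older ones, and together they stood for 62 genes.

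RNA of the embryonic region was labelled with biotin and hybridised to 3 Illumina Mouse-6 bead arrays, which the labels number as replicates 1 to 3 of a single group. All embryos were wild type and untreated, so there was no contrast between genotypes or treatments, and each value was set against the background of its own array. The labels give the strain as Cd-1, an outbred stock, whereas the study's methods name ICR. The sources used here do not give the sex of the embryos or say whether each array held separate embryos or a shared pool, so the spread between arrays may be technical. The signals were deposited on the log2 scale without normalization between arrays. The number of symbols detected on an array was 9015 in replicate 1, 8220 in replicate 2 and 7191 in replicate 3. Of 12 markers of the embryonic region, 7 were above background, among them T, Otx2 and Fgf8, and of the others Hesx1 was detected on no array. Of 12 markers of the visceral endoderm, the layer that covers the embryo proper at earlier stages, 11 were above background, with log2 signals such as 11.40, 11.48 and 10.09 for Ttr, and the remaining marker, Afp, was detected on 2 arrays. Of 6 markers of the extraembryonic ectoderm, Elf5, Eomes, Ascl2 and Gcm1 were detected on no array, while Cdx2 and Rhox5 were above background. The part of the visceral endoderm in the values below was not tested. In RNA of a whole tissue, fewer cells of a type and less RNA per cell cannot be told apart.

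In eukaryotes, eIF2 carries the initiator tRNA to the small ribosomal subunit, and eIF1, eIF1A, eIF3 and eIF5 assemble around it. The eIF4 proteins recognise the cap of the mRNA and unwind its leader, and the subunit then scans to the start codon, where eIF5B joins the large subunit. Growth and stress signals act mainly through phosphorylation of eIF2, which blocks its recycling by eIF2B, and through the 4E-binding proteins, which keep eIF4E from the cap. These factors are needed in every dividing cell, and the gastrulating mouse embryo is known for very rapid cell division.

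Detection on an array was given by a p-value, the share of negative-control probes that were at least as bright, and where a symbol stood for several probes the deposited value combined them. A symbol was called above background when this detection p was under 0.01 on all 3 arrays. Of the 68 members, 40 (58.8%) were above background, where 20.6% of all symbols were. Of the other 28 members, 5 were detected on 2 arrays, 5 on 1 array and 18 on none. Of all 30854 symbols, 20682 were detected on none. Detection p was 0 on every array for 37 of the 40. Counted by gene, 37 of the 62 genes were above background under at least 1 symbol. Every subunit of eIF2B passed, as did Eif4g1 and Eif4g2, the eIF4G proteins among the members. The Argonautes, which the array lists under the older symbols Eif2c1 to Eif2c4, did not.

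**Figure D1:**
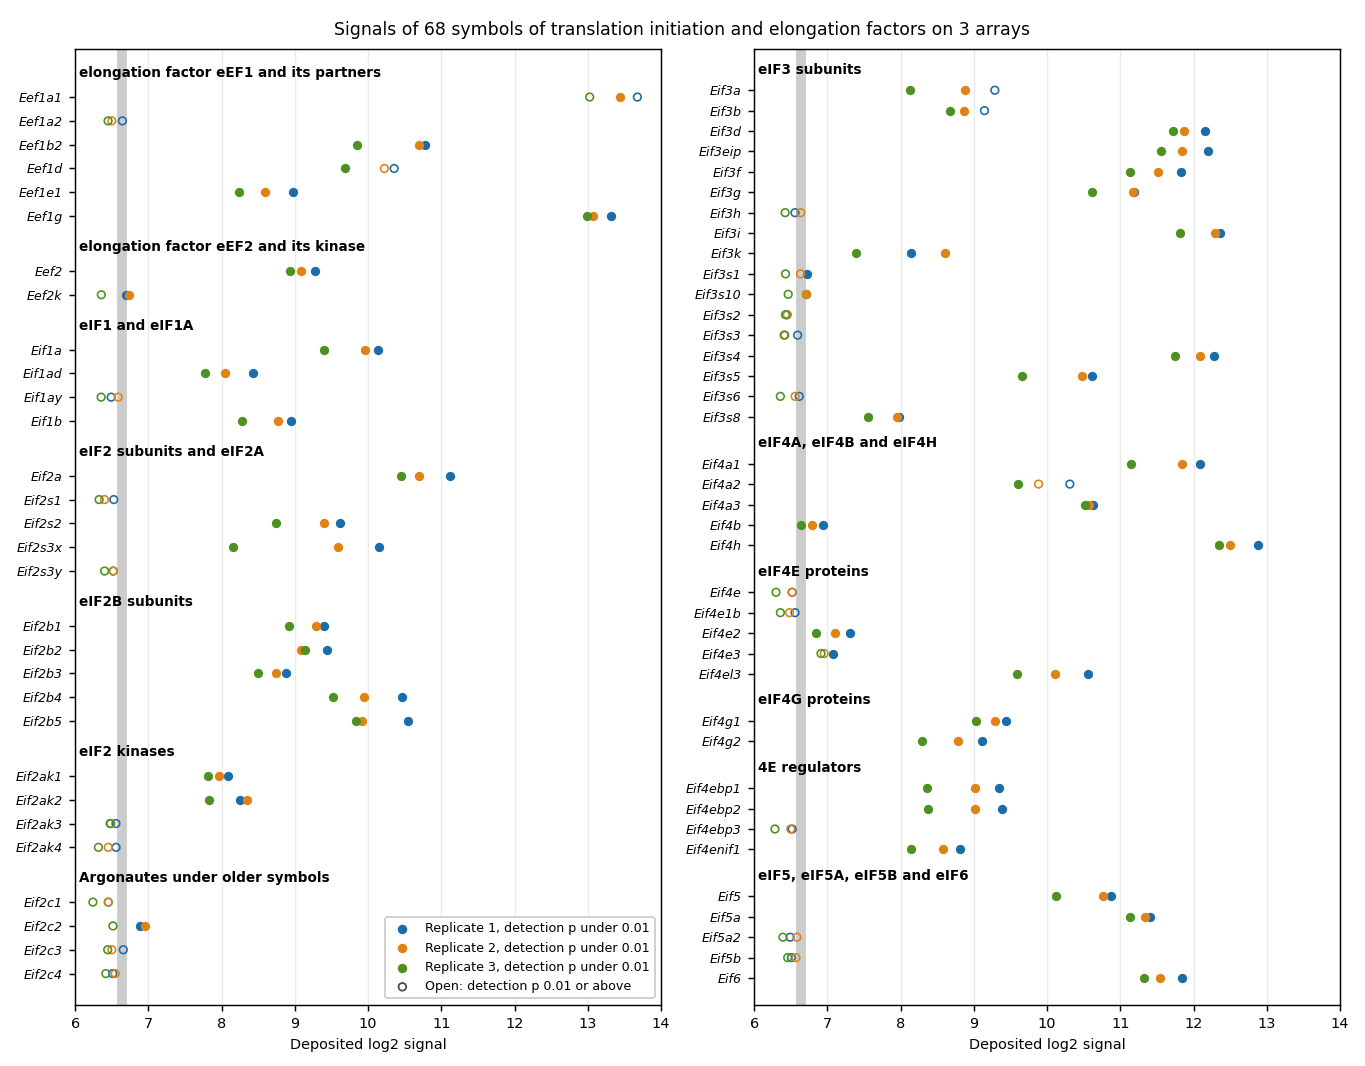
Deposited log2 signal (horizontal axis) of the 68 members on the 3 arrays, grouped by role. Filled circles had a detection p under 0.01 and open circles did not, and the grey band spans the background levels of the arrays, 6.58 to 6.69. The 40 members above background have 3 filled circles, and 6 further members lie to the right of the band on all 3 arrays with at least 1 open circle.

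The background level of an array was taken as the lowest deposited signal at which a symbol with 1 probe was still detected, and it was 6.69 in replicate 1, 6.66 in replicate 2 and 6.58 in replicate 3. By this measure 46 members had a signal above the background level on all 3 arrays, where 26.3% of all symbols did. The 6 members that differed between both counts were Eef1a1, Eef1d, Eif3a, Eif3b, Eif4a2 and Eif4e3, and all 6 had several probes. For these symbols the combined detection p and the averaged signal gave different calls, and both are given for them below. A further measure tested the normalized log2 level minus the background level of the same array with the one-sided test of limma. It called 47 members at an adjusted p under 0.05, where it called 25.7% of all symbols. These were the 40, the 6 above and Eif2c2, and the test missed none of the 40. This fit gave every symbol the same standard error, 0.15, so that its adjusted p-values treat the spread between arrays as known. The SDs given below are of the level minus the background level of the same array. After normalization that background level rose over the arrays, with 4.68, 4.81 and 5.06 in replicates 1, 2 and 3. Such an SD can therefore be smaller or larger than the spread of the normalized level itself. The size of a level also depended on the processing. Without background correction before quantile normalization the log2 levels of 22 of the 40 members shrank by a factor above 1.5, which the SDs do not cover. This factor is a ratio of log2 differences from background and not a fold change of the signal.

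Among the elongation factors, eEF1A delivers aminoacyl-tRNA to the ribosome. Eef1a1, its widespread form, had deposited log2 signals of 13.68, 13.45 and 13.02 in replicates 1, 2 and 3. The detection p of its probes together, at least 3 by their bead numbers, was 0.0105, 4.47e-07 and 0.119. It was thus detected on replicate 2 alone although its signal lay far above the background level on every array. Eef1a2, the form known from muscle and neurons, gave 6.64, 6.50 and 6.45 and was detected on no array. The exchange factor that reloads eEF1A with GTP is built from Eef1b2, Eef1d and Eef1g. Eef1b2 had signals of 10.78, 10.70 and 9.85, with replicate 3 the lowest. Eef1g had signals of 13.31, 13.07 and 12.98 and was detected on all arrays, as was Eef1b2. Eef1d gave 10.35, 10.22 and 9.69, but with at least 4 probes it was detected on replicate 3 alone. Eef1e1, a partner of the aminoacyl-tRNA synthetase complex, gave 8.98, 8.59 and 8.23 and was above background.

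Eef2, which moves the ribosome by a codon after each peptide bond, gave 9.28, 9.08 and 8.93. Its normalized level stood 4.04 ± 0.06 (SD, n = 3) above background on the log2 scale, and 2.44 without background correction. Before subtraction of the background level, the normalized level of Eef2 differed by up to 0.32 between arrays. Its inhibitory kinase Eef2k gave 6.70, 6.73 and 6.36, which was detected on replicates 1 and 2 but not on replicate 3. Thus the transcript of the factor was clear of the background on every array, and that of its kinase lay at the limit of detection.

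Among the factors that hold the scanning ribosome open and check the start codon, Eif1a gave 10.13, 9.95 and 9.40. The symbol Eif1 was not among the members, but Eif1b, a close relative of eIF1, gave 8.94, 8.77 and 8.28. Eif1ad, a protein with an eIF1A domain, gave 8.43, 8.05 and 7.78. These 3 were above background, with replicate 3 the lowest for each. Eif1ay, an older symbol of the X-linked gene Eif1ax, gave 6.49, 6.59 and 6.35 and was detected on no array.

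The factor eIF2 is a trimer whose alpha subunit, Eif2s1, is the target of the stress kinases. Eif2s1 gave 6.53, 6.40 and 6.33, below the background level on every array, so its transcript was not detectable with its 1 probe. The beta subunit Eif2s2 gave 9.61, 9.39 and 8.74 and was above background. Eif2a, which in spite of its name is not a subunit of eIF2 but a separate protein that can bring in the initiator tRNA, gave 11.11, 10.69 and 10.45.

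The gamma subunit, which binds GTP and the tRNA, is encoded on the X chromosome by Eif2s3x and on the Y chromosome by Eif2s3y, so the sequences around both starts are shown, from the RefSeq promoter table for GRCm38.p6. In the 250 bases before each start, read toward the gene, capitals mark matches to an Sp1 site (GGGCGG or, on the other strand, CCGCCC) and to a TATA box (TATAAA or TTTATA).
Eif2s3x, chrX:94212652-94212901 (- strand): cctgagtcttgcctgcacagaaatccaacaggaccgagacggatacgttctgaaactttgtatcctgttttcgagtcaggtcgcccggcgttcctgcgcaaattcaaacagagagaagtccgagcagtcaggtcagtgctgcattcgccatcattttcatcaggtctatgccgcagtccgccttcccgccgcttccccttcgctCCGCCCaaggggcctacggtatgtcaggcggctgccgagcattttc
Eif2s3y, chrY:1010345-1010594 (+ strand): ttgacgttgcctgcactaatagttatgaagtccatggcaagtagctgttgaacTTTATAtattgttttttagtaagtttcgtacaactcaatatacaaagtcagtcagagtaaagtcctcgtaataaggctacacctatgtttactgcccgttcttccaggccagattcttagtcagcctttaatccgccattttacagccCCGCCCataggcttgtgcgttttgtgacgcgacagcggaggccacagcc
The upstream stretch of Eif2s3x held 19 CpG and 56.4% G or C, and that of Eif2s3y held 10 CpG and 44.4% G or C. Of 222 bases that could be aligned, 158 (71.2%) were identical. The Sp1 letters stood in both, and the TATA letters only in Eif2s3y. There they lay nearer the far end of the stretch than the start.

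Eif2s3x had deposited signals of 10.15 in replicate 1, 9.59 in replicate 2 and 8.15 in replicate 3, each with a detection p of 0. Replicate 3 was the lowest, and the standard error over the beads of these signals was 0.09, 0.09 and 0.12 on the log2 scale. After normalization the level above background was 5.08, 4.58 and 3.10, with a mean of 4.25 ± 1.03 (SD, n = 3) that was 2.65 without background correction, and replicate 3 was lower than the mean of the others by a log2 difference of -1.40. Of the 6357 symbols above background, 7 had a wider range over the arrays. Eif2s3y gave 6.52, 6.52 and 6.40 and was detected on no array.

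Other genes of the sex chromosomes were read beside this pair. Xist, the X-linked RNA that silences an X chromosome in female cells, gave 8.78, 6.92 and 6.53 and was detected on replicates 1 and 2. Like Eif2s3x it was highest in replicate 1 and lowest in replicate 3. With each array centred on its median, 92.0% of all symbols above background were higher in replicate 1 than the mean of the others. In replicate 3, 7.55% of them were higher than the mean of the others. Of the Y-linked genes, Ddx3y gave 6.72, 7.18 and 6.84, above the background level of each array but with a combined detection p of 0.123, 0.0706 and 0.634. Jarid1d, the older symbol of Kdm5d, gave 6.56, 6.66 and 6.25 and was detected on replicate 2 alone, and Uty gave 6.52, 6.48 and 6.34 and was not detected. Eif2s3x was the only one of these 6 genes above background on all arrays. Over the 182 X-linked symbols above background, the median difference of replicate 3 from the mean of the others was -0.04, and over the 5248 autosomal ones it was 0.04. The part of the sex of the embryos in the values of Eif2s3x was not tested.

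**Figure D2:**
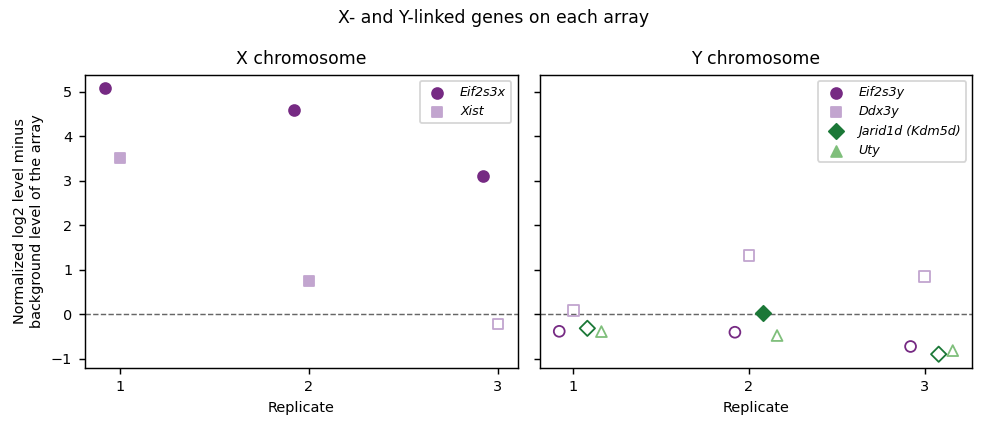
Normalized log2 level minus the background level of the same array (vertical axis) for X-linked genes (left) and Y-linked genes (right) on replicates 1 to 3. Filled symbols had a detection p under 0.01, and the dashed line is the background level. Eif2s3x and Xist are highest in replicate 1 and lowest in replicate 3, and Eif2s3y lies below the line on all arrays. The subtracted background level rises from replicate 1 to 3.

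All 5 subunits of eIF2B, the exchange factor that recharges eIF2 with GTP, were above background. Of its regulatory subunits, Eif2b1, the alpha subunit, gave 9.40, 9.29 and 8.91. Eif2b2, the beta subunit, gave 9.44, 9.08 and 9.14, and Eif2b4, the delta subunit, gave 10.46, 9.94 and 9.52. The catalytic part is formed by the gamma subunit Eif2b3, with 8.88, 8.74 and 8.50, and the epsilon subunit Eif2b5, with 10.54, 9.91 and 9.83. Replicate 1 was the highest for each subunit, and replicate 2 rather than 3 was the lowest for Eif2b2. The normalized levels stood between 3.59 ± 0.04 (SD, n = 3) for Eif2b3 and 5.14 ± 0.31 (SD, n = 3) for Eif2b5 above background, and without background correction these were 2.06 and 3.44. Before subtraction of the background level, the normalized levels of Eif2b3 and Eif2b5 differed by up to 0.30 and 0.46 between arrays.

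The kinases that phosphorylate eIF2 divided into those detected on every array and those detected on none. Eif2ak1 (HRI), which responds to lack of haem, gave 8.08, 7.96 and 7.81. Its level above background was 2.61 ± 0.02 (SD, n = 3), or 1.30 without background correction. Before subtraction of the background level, its normalized level differed by up to 0.39 between arrays. Eif2ak2 (PKR), which responds to double-stranded RNA, gave 8.25, 8.35 and 7.83. Eif2ak3 (PERK), the sensor of the endoplasmic reticulum, gave 6.56, 6.49 and 6.48, and Eif2ak4 (GCN2), the sensor of amino acid shortage, gave 6.56, 6.45 and 6.32. Neither of these passed on any array.

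The Argonautes bind small RNAs and belong to the members only through their older name. Eif2c2 (Ago2), the Argonaute that cuts its targets, gave 6.89, 6.95 and 6.52 and was detected on replicates 1 and 2. Its level above background was 0.51, 0.82 and -0.30, and the adjusted p from limma was 0.0452, ranging from 0.0505 to 0.999 under 7 of 8 alternative settings. Eif2c1, Eif2c3 and Eif2c4 were detected on no array, with signals between 6.24 and 6.66.

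The scaffold eIF3 had 17 symbols, of which 9 were above background, 4 were detected on 1 or 2 arrays and 4 on none. Eif3d gave 12.15, 11.87 and 11.72. Eif3eip, the older symbol of Eif3l, gave 12.20, 11.84 and 11.56. Eif3s8, the older symbol of the core subunit Eif3c, gave 7.98, 7.95 and 7.56. These were above background with replicate 1 the highest, whereas Eif3k gave 8.15, 8.60 and 7.39 and was highest in replicate 2. Eif3b, the core subunit that binds Eif3g and Eif3i, gave 9.14, 8.86 and 8.68 and was detected on replicates 2 and 3. Eif3s1, the older symbol of the loosely bound subunit Eif3j1, gave 6.72, 6.63 and 6.43 and was detected on replicate 1 alone. Eif3s6, the older symbol of Eif3e, gave 6.61, 6.56 and 6.36 and was detected on no array.

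A pair of symbols read the same gene in 6 cases, 5 of them subunits of eIF3. Eif3f gave 11.83, 11.52 and 11.13, and its older symbol Eif3s5 gave 10.61, 10.47 and 9.66. Eif3g gave 11.19, 11.17 and 10.62, and its older symbol Eif3s4 gave 12.28, 12.09 and 11.75. Both symbols of each of these genes were above background, as were both symbols of the cap-binding protein Eif4e2. The symbols of Eif3i did not go together, since Eif3i gave 12.36, 12.29 and 11.81 and was above background while Eif3s2 gave 6.45, 6.45 and 6.43 and was detected on no array. For Eif3a, the largest subunit, the current symbol gave 9.29, 8.88 and 8.13 and was detected on replicates 2 and 3. Its older symbol Eif3s10 gave 6.70, 6.71 and 6.46 and was detected on replicates 1 and 2. Eif3h gave 6.56, 6.64 and 6.42 and its older symbol Eif3s3 gave 6.59, 6.42 and 6.41, and neither was detected on any array. The call on all 3 arrays thus depended on the symbol for Eif3i. For Eif3a neither symbol passed it, but the signal of the current symbol was above the background level on all 3 arrays and its adjusted p from limma was 1.55e-127, while the older symbol was above that level on 2 arrays and its adjusted p rounded to 1.00. Levels are not compared between symbols because they come from different probes.

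**Figure D3:**
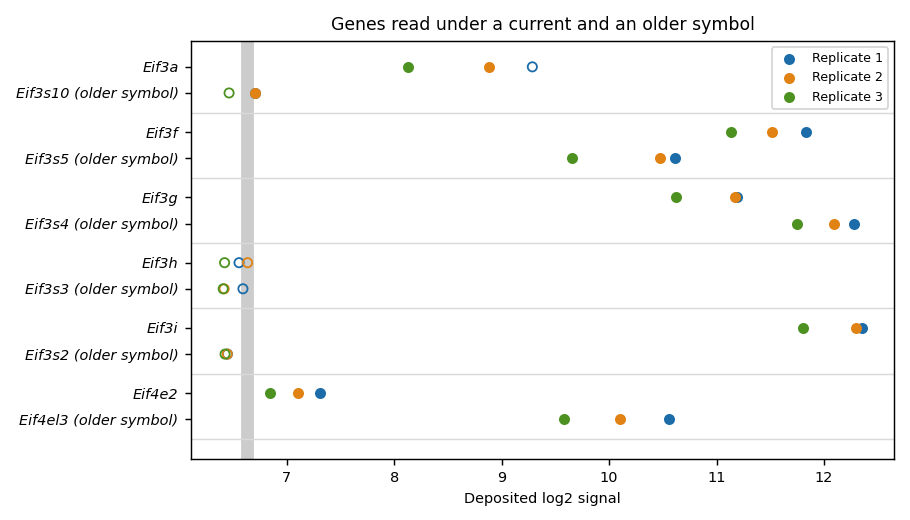
Deposited log2 signal (horizontal axis) on the 3 arrays for the 6 genes that the array lists under a current and an older symbol. Filled circles had a detection p under 0.01, open circles did not, and the grey band spans the background levels of the arrays. Eif3f, Eif3g and Eif4e2 have filled circles in both rows, and Eif3i in the row of the current symbol only.

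Of the eIF4A helicases that unwind the leader of the mRNA, Eif4a1 gave 12.09, 11.84 and 11.14 and was above background. Eif4a2 gave 10.31, 9.88 and 9.60 and, with at least 4 probes, was detected on replicate 3 alone. Eif4a3, a relative that sits in the exon junction complex, gave 10.63, 10.58 and 10.52, the narrowest deposited range of the 40 members above background. Of the helicase's helpers, Eif4h gave 12.88, 12.49 and 12.35. Eif4b gave 6.94, 6.79 and 6.63, close to the background level but detected on all arrays. Its level above background was 0.42 ± 0.21 (SD, n = 3), or 0.13 without background correction, with an adjusted p of 0.0111 from limma that lay between 0.0502 and 0.189 under 5 of 8 alternative settings.

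The cap-binding protein itself, Eif4e, gave 6.52, 6.52 and 6.30 and was detected on no array with its 1 probe. Eif4e1b, a form known from oocytes, gave 6.56, 6.48 and 6.36 and was not detected either. Eif4e3 gave 7.08, 6.96 and 6.91 and was detected on replicate 1 alone. Eif4e2, which binds the cap without recruiting the ribosome, gave 7.31, 7.11 and 6.85, and under its older symbol Eif4el3 it gave 10.56, 10.10 and 9.58. The scaffold Eif4g1, which links the cap-binding protein to the helicase and eIF3, gave 9.43, 9.29 and 9.03. Eif4g2, a relative that lacks the site for eIF4E, gave 9.11, 8.78 and 8.29, and both scaffolds were above background. The symbol Eif4g3 was not among the members, so that scaffold was not read.

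Of the 4E-binding proteins, which keep eIF4E from the scaffold until mTOR phosphorylates them, Eif4ebp1 gave 9.34, 9.01 and 8.35. Eif4ebp2 gave 9.39, 9.02 and 8.37, and Eif4ebp3 gave 6.52, 6.50 and 6.28. The normalized levels of Eif4ebp1 and Eif4ebp2 stood 3.81 ± 0.42 and 3.84 ± 0.43 (SD, n = 3) above background, with replicate 1 the highest and replicate 3 the lowest for both, and 2.25 and 2.27 without background correction. Eif4ebp3 was detected on no array. Eif4enif1, which carries eIF4E into the nucleus and to sites of mRNA decay, gave 8.81, 8.58 and 8.14 and was above background. The transcripts of 3 of these 4 partners of eIF4E were thus detected on every array on which the probe of Eif4e itself was not.

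At the end of initiation, Eif5, which makes eIF2 split its GTP, gave 10.87, 10.76 and 10.12. Eif5b, which joins the large subunit, gave 6.51, 6.57 and 6.46 and was detected on no array with its probes, at least 3. Eif5a, the factor with the amino acid hypusine that helps the ribosome past difficult stretches, gave 11.40, 11.34 and 11.13. Its level above background was 6.40 ± 0.02 (SD, n = 3), or 4.64 without background correction. Before subtraction of the background level, the normalized level of Eif5a differed by up to 0.36 between arrays. Its relative Eif5a2 gave 6.49, 6.58 and 6.39 and was not detected. Eif6, which keeps the large subunit from joining too early, gave 11.84, 11.55 and 11.32 and was above background.

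On the deposited signals, replicate 1 was the highest for 38 of the 40 members above background and replicate 3 was the lowest for 39. This order followed the arrays as a whole. With each array centred on its median, the median difference of replicate 3 from the mean of the others was -0.35 over the members and -0.26 over all symbols above background. After normalization it was 0.00 over the members and 0.03 over all. The range of a member over the 3 normalized arrays had a median of 0.26, where that of all symbols above background was 0.33, but on the deposited signals the order turned, with 0.64 for the members and 0.49 for all. Beside Eif2s3x, with a range of 1.59, the widest normalized ranges were 1.21 for Eif3k, 0.59 for Eif4a3, 0.54 for Eif2b2 and 0.47 for Eif4ebp2. On the deposited signals Eif2s3x and Eif3k were also the widest, with 2.00 and 1.22, but Eif4a3 was the narrowest with 0.11 and Eif2b2 had 0.36, while Eif4ebp2 had 1.02 and Eif4ebp1 0.98. Eif3k stood out in replicate 2, where its normalized level was 1.03 higher than the mean of the others, and its level above background was 2.70, 3.43 and 1.96. Of the 12 markers of the visceral endoderm, 10 had their highest level above background in replicate 2 and their lowest in replicate 3. This order was shared by 22.9% of all symbols above background and by 5 of the 40 members. On the deposited signals 8 of the 12 markers had it, where 14.2% of all symbols above background and 2 of the 40 members did. The summed level of the 12 markers was 43.4, 46.2 and 34.3, and among them Apob had levels of 3.83, 4.25 and 2.95. The part of the visceral endoderm in the values of Eif3k was not tested. Of the 6357 symbols above background, 40 had a wider range than Eif3k and 1027 a wider range than Eif4a3, so the normalized ranges after Eif3k were common ones. With 3 arrays of a single group, no test of an array against the others was possible.

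**Figure D4:**
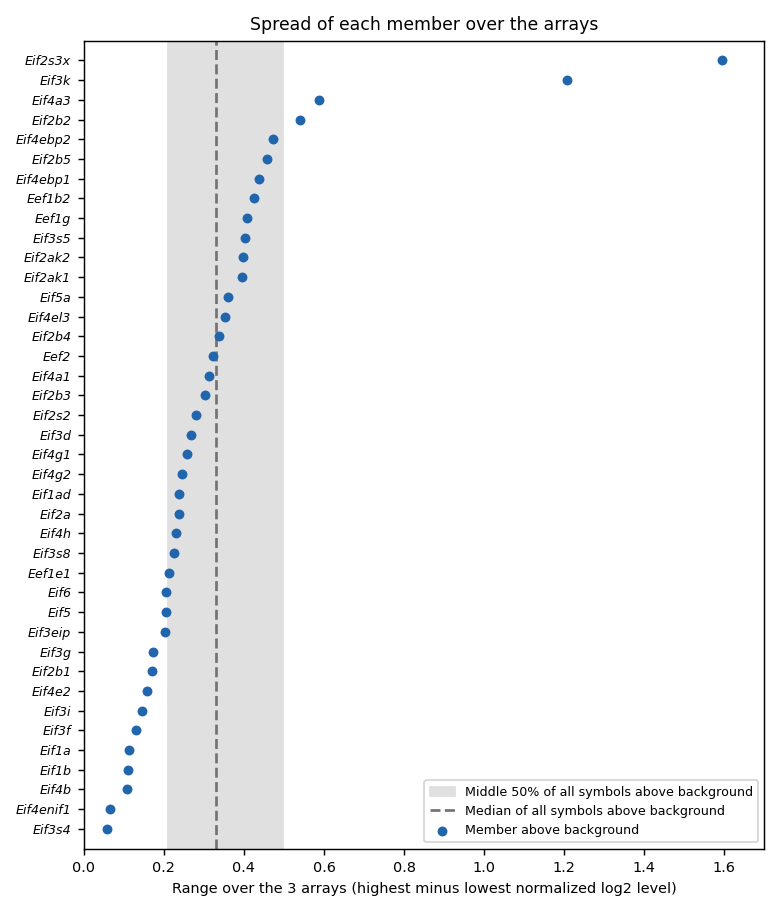
Range over the 3 arrays of the normalized log2 level (horizontal axis, highest minus lowest) for each of the 40 members above background. The grey band is the middle 50% and the dashed line the median, 0.33, of all symbols above background. Eif2s3x at 1.59 and Eif3k at 1.21 lie apart from the other members, which reach 0.59. On the deposited signals Eif4a3, here below Eif3k, was the narrowest.

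Other genes of translation and its control were read from a list of 44, of which 38 were on the array. Of these 38, 21 (55.3%) were above background, and 11 were detected on no array. At termination, Etf1, the release factor that reads stop codons, gave 11.61, 11.04 and 10.82, and its partner Gspt1 gave 12.50, 12.50 and 12.31. Dhps, which begins the modification of eIF5A, gave 8.30, 7.88 and 7.73, and Dph1 and Dph2, which begin that of eEF2, were above background as well. Pabpc1, the poly(A)-binding protein that contacts eIF4G, gave 8.89, 8.45 and 7.62 and was above background. Tufm, the mitochondrial counterpart of eEF1A, gave 11.45, 11.43 and 10.78. Atf4, the transcription factor whose mRNA is read more when eIF2 is phosphorylated, gave 8.15, 8.08 and 7.68. Frap1, the older symbol of the kinase gene Mtor, gave 7.58, 7.38 and 7.25, above the background level on every array but detected on replicate 2 alone. Rps6kb1 and Rps6kb2, the kinases downstream of mTOR, were detected on no array.

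The starts of the genes were compared because mRNAs of the translation machinery are known for a terminal oligopyrimidine (TOP) start, a C and a run of pyrimidines at the cap through which mTOR controls their use. A start was called TOP-like when a C followed by at least 4 pyrimidines began within 2 bases of the RefSeq start. Whether the RefSeq start is the cap site was not tested, so the call describes the letters at that start only. Eef2, for example, was not called, although its window held a C and a run of pyrimidines farther after the start. A promoter was found for 48 of the 62 genes, and 11 of the 48 (22.9%) had a TOP-like start, where 10.6% of all genes with a promoter and 11.7% of those above background on these arrays did. Of the 11, 6 were above background, where 30 of the 48 genes with a promoter were. These 6 were Eif1ad, Eif2b5, Eif2s3x, Eif3f, Eif3l and Eif4g1. The others of the 11 were the Argonaute Ago4, the eIF2 kinase Eif2ak4, Eef1a1, Eif2s3y and Eif3b. The windows of 30 bases below run from 5 bases before to 25 after the start, with the pyrimidine run in capitals. They show the pair on X and Y, the eIF3, eIF2B and eIF4G members with a run, and Eef1a1.
Eif2s3x, chrX:94212627-94212656 (- strand): ttttCCTTTTCTCTCCgagcaagatggctg
Eif2s3y, chrY:1010590-1010619 (+ strand): cagccaCTTCCTTCTTTCgtgagcaagatg
Eif3f, chr7:108934410-108934439 (+ strand): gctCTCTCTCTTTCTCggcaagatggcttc
Eif3l, chr15:79075218-79075247 (+ strand): cttCTTCCgctctctcccacgggcttctgg
Eif3b, chr5:140419300-140419329 (+ strand): gcggtgaCTTCTgggagtcggaagcagggc
Eif2b5, chr16:20498812-20498841 (+ strand): tctCTCCCTgcaactacaccttcgcgtttt
Eif4g1, chr16:20672722-20672751 (+ strand): gctccgCCCTCTgcgccggtcacgtggggc
Eef1a1, chr9:78481700-78481729 (- strand): ccctCTTCCCgagggtgggggagaacggta
Counted from that C, the run was 12 bases long in Eif2s3x and in Eif2s3y and 13 in Eif3f, and 5 or 6 in the others shown. Pyrimidines just before the C, which several of these windows hold, were not counted. Of the X and Y copies, which both had a long run, Eif2s3x was above background and Eif2s3y was detected on no array.

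In the whole promoters, 250 bases before to 50 after the start, letters of known factor sites were counted on both strands. The E-box CACGTG, the site of Myc and its relatives, stood in 12 of the 48 genes, among them Eef2, Eif4a1, Eif4g1, Eif4h and Eif5a. It stood in 8.09% of all genes and in 12.6% of the genes above background. The ETS site CCGGAAGT, or ACTTCCGG on the other strand, stood in 9 of the 48 (18.8%), where it stood in 4.31% of all genes and 11.0% of those above background. It was found in Eif2b2 and Eif2b4, and in Eef1b2, Eif3d and Eif3l. The Sp1 letters GGGCGG stood in 77.1% of the genes, against 38.2% of all and 72.8% of those above background, and TATAAA stood in 10.4%, against 15.7% and 8.12%. The CCAAT box, CCAAT or ATTGG, stood in 33.3% of the genes and in 41.1% of all. The CRE letters TGACGTCA were found in Eef2 alone, or 2.08% of the genes, against 2.03% of all and 4.04% of those above background. The median promoter of the members held 24 CpG, where the median was 7 over all promoters and 21 over those of symbols above background. No motif contains the letters of another, though their ends may overlap. A match is a description of the letters in this window and not evidence of binding.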

How the data were processed

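RNA of EHF stage embryos was read on 3 Illumina Mouse-6 bead arrays, treated as replicates of a single group as the labels number them. The labels name an RNeasy column kit and the study's methods TRIzol. The authors deposited log2 signals with 1 value per gene symbol, not normalized between arrays, with the number of beads, the bead standard error and the detection p-value. The deposited p-values move in steps of 1 in 936 negative-control probes. The submitters' processing notes name Partek, and scanner software and settings are not given in the sources used here. The number of columns that matched no sample was 0.

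A symbol was taken to have 1 probe where its bead numbers were whole and its detection p lay on these steps on all arrays (21998 symbols), and several probes otherwise. Where a number of several probes is given, it is the smallest that makes the mean bead numbers whole. Averaging over probes mixes detected and undetected ones, which can hide a detected transcript. For levels, the background was removed with limma's normexp method (limma 3.58.1, R 4.3.3), fitted to single-probe symbols through their detection p, with an offset of 16, and quantile normalization on the log2 scale followed. As the background level of each array served the lowest value of a single-probe symbol that was detected at a p under 0.01 but not at 0. The difference of each level from that background was tested over 30854 symbols in limma, one-sided (an intercept in lmFit, then eBayes, with Benjamini-Hochberg adjustment at 0.05). The test was also run on simulated data. These were normal values around the mean background level of the arrays, without averaging over probes, so no call here rests on them. The planned design spoke of probes, and the test ran on symbols. The p-values of this test rest on the same standard error for every symbol, taken from the spread between these arrays alone.

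The members and all lists were chosen with earlier results of these data known. Every member was placed in a class by role, and values on each array were given for the members of the classes, for every member detected on 1 or 2 arrays and for the 5 members above background with the widest normalized range. Lists were translation partners, sex-linked genes, and markers of the embryonic region, visceral endoderm and extraembryonic ectoderm. Older symbols were matched to current ones, and promoters read, from RefSeq tables of GRCm38.p6. The number of arrays limits the precision. Other detection thresholds, numbers of arrays, scalings, offsets, background levels and single replicates left out were tried.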

Additional observations from a re-analysis of the deposited data

How the results depend on the processing

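The count of 40 members above background lay between 40 and 50 under 9 alternatives, with 43 at a detection p under 0.05, 40 under 0.001, 45 when 2 arrays had to pass and 50 when 1 array sufficed. Requiring a signal above the background level was a rule chosen after seeing the data and gave 46. The limma count of 47 members lay between 45 and 47. Detection on at least 1 array moved the count over all symbols from 6357 to 10172 and that of embryonic region markers from 7 to 11. The count of 1 sex-linked gene above background became 2 at a detection p under 0.05, 2 when 2 arrays had to pass, 3 when 1 sufficed, 3 by limma, 2 by signal above the background level, and 1 to 2 without a replicate. The level calls of Eif2c2 and Eif4b were lost under 7 and 5 of 8 alternatives, and no other member's call changed. No called level changed sign, but without replicate 3 the uncalled levels of Eef2k, Eif3s10 and Eif3s1 went from -0.18, -0.11 and -0.22 to 0.16, 0.12 and 0.01. Without background correction the log2 levels of the 40 members shrank by factors of 1.28 to 3.10, and with an offset of 50 by 1.16 to 2.01. These factors are ratios of log2 differences from background and not fold changes. With median scaling in place of quantile normalization, the median difference of an array from the others over the members was 0.45, 0.04 and -0.51 for replicates 1, 2 and 3 in place of 0.04, -0.03 and 0.00, and the same over all symbols above background was 0.41, 0.07 and -0.47. No paired analysis was possible because all arrays belong to the same group. Signal close to background limits what can be said of the 18 members detected on no array, whose transcripts were not detectable with these probes.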
